A study of Sus scrofa with 12 samples.

Results

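Peaks of N6-methyladenosine (m6A) that lie in the first exon of their transcript are described here in the longissimus dorsi, the long back muscle, of 5-day-old pigs. The pigs were Large White, a fast-growing lean breed, or Ningxiang, a fatter native breed of China; each breed had 3 replicates and no treatment is named. The study asked which m6A-modified mRNAs take part in muscle development in these 2 breeds. For each replicate the authors deposited 1 list of peaks, regions where RNA pulled down with an m6A antibody exceeded the input RNA, so the 6 lists stand for 12 sequenced samples. Members were all peaks whose annotation named an exon of a transcript of 2 or more exons and whose exon was the first, counted from the 5′ end. They numbered 698 of 10335 such exon-class peaks and of 13487 peaks of every class, and fell in 247 of the 1825 genes with an exon-class peak. Nothing in the labels ties each replicate to a pig of its own, so every p-value speaks only of the variation among these replicates, and that may be technical. Sequencing depth is unknown from the lists.

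m6A is written on nascent mRNA by a methyltransferase complex built around METTL3 and METTL14, and proteins that bind the mark affect splicing, translation and decay of the transcript. In mammals it is known to be dense in long exons and around stop codons, and sparse in short exons flanked by splice sites. The first exon begins at the cap and usually holds the 5′ untranslated region and, in many genes, the start codon. Antibodies against m6A also bind m6Am, a related modification of the nucleotide next to the cap.

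The annotation shaped which peaks could be members. Peaks that the lists class as 5′ or 3′ untranslated region have no exon number and could not be members. A peak that crossed splice junctions was named after its exon with the lowest coordinate. On the plus strand that is the exon nearest the 5′ end, on the minus strand the one nearest the 3′ end. Of the 437 plus-strand members, 317 crossed a junction, while 0 of the 261 minus-strand members did. A further 602 minus-strand peaks reached the first exon with their last exonic block and were listed under a later exon. Counted by any block in the first exon, 1300 exon-class peaks touched it, 437 on the plus strand and 863 on the minus strand. By the listed exon, first exons held 10.4% ± 1.54 (SD, n = 6 lists) of plus-strand exon-class peaks and 4.29% ± 0.609 of minus-strand ones. By any block the shares were 10.4% ± 1.54 and 14.1% ± 1.59. Strands are given apart where the direction of a difference depended on them.

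**Figure D1:**
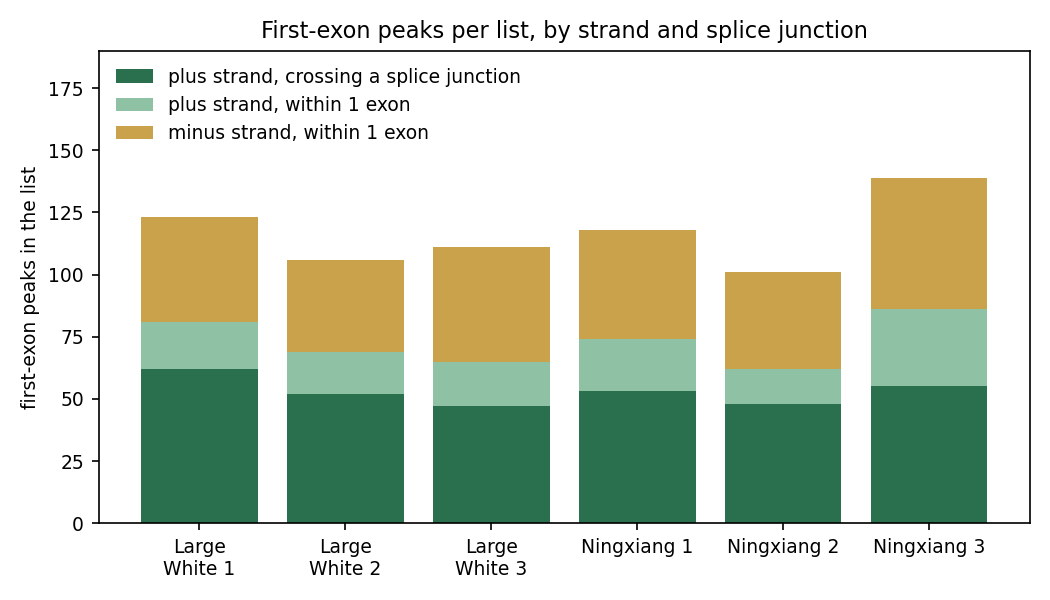
Number of first-exon peaks (vertical axis) in each of the 6 lists, stacked by strand and by whether the peak crosses a splice junction. Totals run from 101 in Ningxiang replicate 2 to 139 in Ningxiang replicate 3, and the minus-strand peaks all lie within 1 exon.

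The numbers of first-exon peaks overlapped between the 2 breeds. Large White replicates 1, 2 and 3 had 123, 106 and 111, and Ningxiang replicates 1, 2 and 3 had 118, 101 and 139. The lowest and the highest count were both Ningxiang, so the breeds overlapped: means were 113.3 ± 8.74 (SD, n = 3) and 119.3 ± 19.0 (exact permutation test, two-sided p = 0.7, adjusted p = 0.9 over 4 comparisons). The peaks fell in 100.7 ± 7.51 genes per Large White list and 104 ± 15.5 genes per Ningxiang list (exact permutation p = 0.9, n = 3, adjusted p = 0.9). Without Ningxiang replicate 3 the order turned, to 3.83 more peaks and 4.17 more genes in Large White. Without Large White replicate 2 there were 0.5 more genes in Large White. With every peak that has a block in the first exon counted, Large White had 6 more peaks and 8.67 more genes (exact permutation p = 0.9 and 0.7, n = 3, adjusted p = 0.9 for both). First exons took 6.27% ± 0.513 of exon-class peaks in Large White and 7.29% ± 1.07 in Ningxiang (exact permutation p = 0.3, n = 3, adjusted p = 0.8). With 3 lists against 3 the smallest p possible is 0.1.

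Most members lay close to the start of the transcript. For 691 members the nearest gene in the list was the gene of the exon, and their median listed distance from the start was 147 bp. Of these, 535 (77.4%) began within 500 bp and 105 (15.2%) overlapped the start itself. Only 55 lay more than 1000 bp away, among them peaks of IRS1 and ZHX3, up to 3049 bp. The median distance was 147 bp on the plus strand and 148 bp on the minus strand. Overlap with the start differed: 9.24% of plus-strand members and 25.2% of minus-strand members. The median member covered 210 exonic bases, with a range of 114 to 1135, and 381 members stayed within 1 exon while 136 covered 2 and 107 covered 3.

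**Figure D2:**
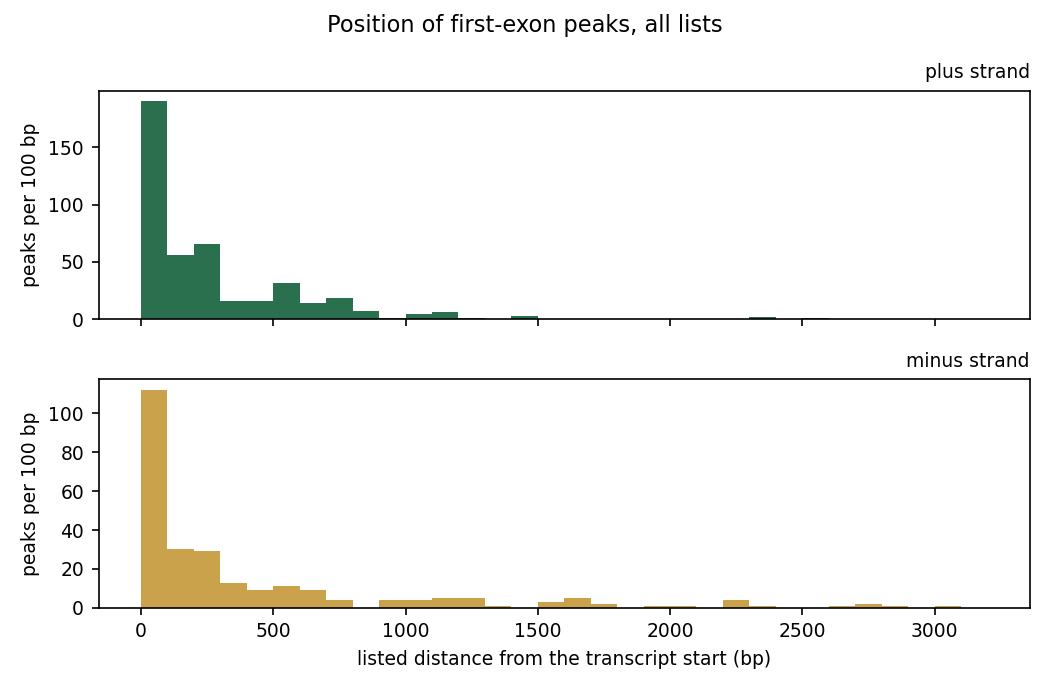
Listed distance from the transcript start in bp (horizontal axis, 100 bp bins) against the number of first-exon peaks of all 6 lists, for each strand. Both histograms are highest in the bin at the start, and few peaks of either strand lie beyond 1000 bp.

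First exons carried fewer peaks than an equal share for every exon would give. Among peaks within 1 exon (1318 on the plus strand and 2636 on the minus strand), 381 of 3954 lay in the first exon. If each exon of a transcript held the same share of its peaks, 682.2 would. The ratio was 0.557 ± 0.0847 (SD, n = 6 lists), lying between 0.489 and 0.708, and it was 0.554 ± 0.120 on the plus strand and 0.559 ± 0.0753 on the minus strand. For the last exon the ratio was 2.14 ± 0.156 on the plus strand and 3.77 ± 0.0851 on the minus strand, so every list lay below 1 for the first exon and above 1 for the last. Exon lengths were not taken into account, and peaks classed as untranslated region are outside these counts.

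The share depended on the number of exons. In 2-exon transcripts 25.1% of the 350 peaks within 1 exon lay in the first exon, against 50% for an equal share. In transcripts of 3 to 4 exons it was 11.4% against 28.8%, in those of 5 to 9 exons 9.49% against 15.2%, and in those of 10 or more 5.59% against 6.72%. The share thus came closest to an equal one in the longest transcripts. In 2-exon transcripts the 3 Large White lists had 17.6%, 23.1% and 23.2%, all below the Ningxiang lists with 29.2%, 29.0% and 29.7%. These rest on 48 to 68 peaks per list, and the order was noticed after the values were seen and was not tested.

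**Figure D3:**
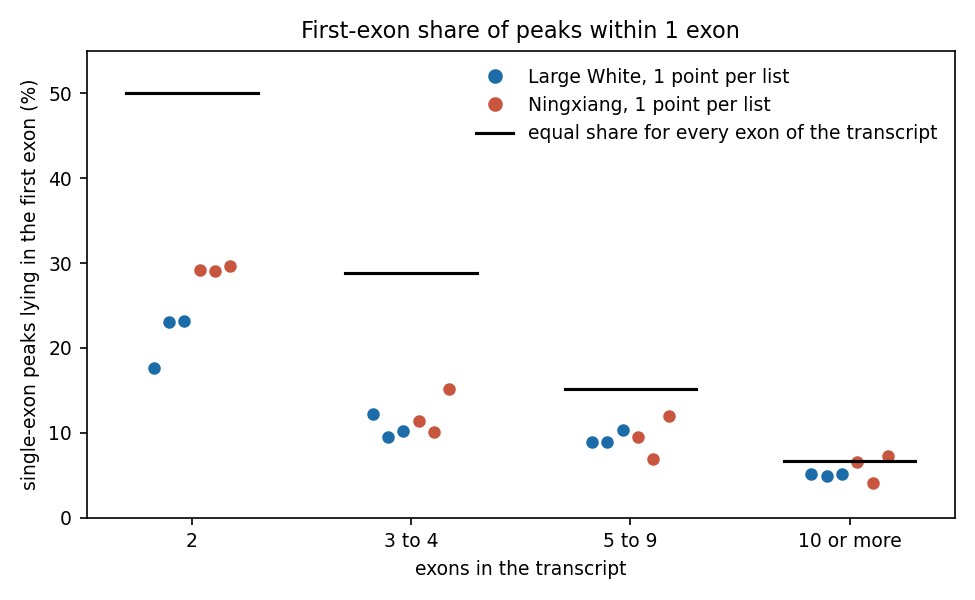
Percent of peaks within 1 exon that lie in the first exon (vertical axis), by number of exons in the transcript, with 1 point per list. The black bars mark the percent that an equal share for every exon would give; the points lie below the bar in the first 3 classes and on either side of it in the class of 10 or more.

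The authors' fold over input, a linear ratio, was somewhat higher in first-exon peaks than in the other exon-class peaks of the same list. By the listed exon the difference lay on the plus strand. The median fold was 2.68 ± 0.152 (SD, n = 6 lists) in first exons and 2.48 ± 0.0534 in the others. It was higher in 5 of 6 lists, by 0.20 ± 0.142 on average (exact sign-flip permutation test over lists, two-sided p = 0.0625, adjusted p = 0.156 over 5 measures). Among the 5 measures is the junction-crossing share, which the naming by lowest coordinate fixes in part. Its low p can make the adjusted p of the other measures smaller than they would be without it. On the plus strand the median was 2.80 ± 0.219 against 2.43 ± 0.0441, higher in 6 of 6 lists (exact permutation p = 0.0312, the smallest possible with 6 lists; adjusted p = 0.0521). On the minus strand it was 2.53 ± 0.133 against 2.51 ± 0.0640, higher in 3 lists and lower in 3 (exact permutation p = 0.781, n = 6). Among peaks within 1 exon the difference was -0.04 (exact permutation p = 0.5, n = 6, adjusted p = 0.833). With every peak that has a block in the first exon counted, and the strands pooled, the median fold was higher in first exons in every list. It ran from 2.53 to 2.69 against 2.39 to 2.54 in the others. The part of junction-crossing in these differences was not tested.

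By strength, length and recurrence, the comparison of first with other exons depended on the strand or on the peaks kept. The median log10 p, more negative for stronger peaks, was -9.24 ± 0.806 (SD, n = 6 lists) in first exons and -9.72 ± 0.626 in the others (exact permutation p = 0.219, adjusted p = 0.365). The difference was -0.19 on the plus strand and 1.12 on the minus strand (exact permutation p = 0.656 and 0.125, n = 6, adjusted p = 0.656 and 0.208). Among the 50% of peaks with the lowest p in each list it was 4.19, the first exons being the weaker in 6 of 6 lists (exact permutation p = 0.0312, adjusted p = 0.0781). With every peak that has a block in the first exon counted, the difference turned to -1.49, the first exons being the stronger (exact permutation p = 0.0312, n = 6, adjusted p = 0.0521). This count favours peaks of many blocks. Junction-crossing peaks made up 67.1% to 73.8% of the peaks so counted per list, against 57.7% to 62.9% of the others. The part of this in the difference was not tested. The median exonic length was 219 ± 14.0 bases against 210 ± 0.632 (exact permutation p = 0.375, n = 6, adjusted p = 0.469). On the plus strand first-exon peaks were 29.3 bases longer, in 6 of 6 lists (exact permutation p = 0.0312, adjusted p = 0.0521). On the minus strand they were 31.3 bases shorter, in 6 of 6 lists. No minus-strand member crosses a junction, so the naming by lowest coordinate fixes this in part, and it is given without a test. Among peaks within 1 exon, with the strands pooled, the length difference was -10.1 bases (exact permutation p = 0.25, n = 6, adjusted p = 0.625). Peaks found again in at least 1 other list, by an overlap of 1 base or more, made up 91.3% ± 5.09 of first-exon peaks and 90.2% ± 1.95 of the others (exact permutation p = 0.562, n = 6, adjusted p = 0.562). The difference was 2.24 percentage points on the plus strand and -0.48 on the minus strand (exact permutation p = 0.375 and 0.688, n = 6, adjusted p = 0.469 and 0.781). Ningxiang replicate 3 had the lowest share of first-exon peaks found again, 83.5%, and Ningxiang replicate 2 the highest, 98.0%. Of all members, 270 (38.7%) overlapped a peak in each of the other 5 lists and 64 (9.17%) overlapped none. Junction-crossing peaks made up 45.6% ± 4.15 of first-exon peaks and 62.8% ± 1.75 of the others, a difference that the naming by lowest coordinate fixes in part and that is given without a test. Its direction depended on the strand. On the plus strand the share was 4.55 points higher in first exons, in 6 of 6 lists. On the minus strand the naming fixes the share of first-exon peaks at 0%, against 57.2% to 62.0% of the others per list.

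**Figure D4:**
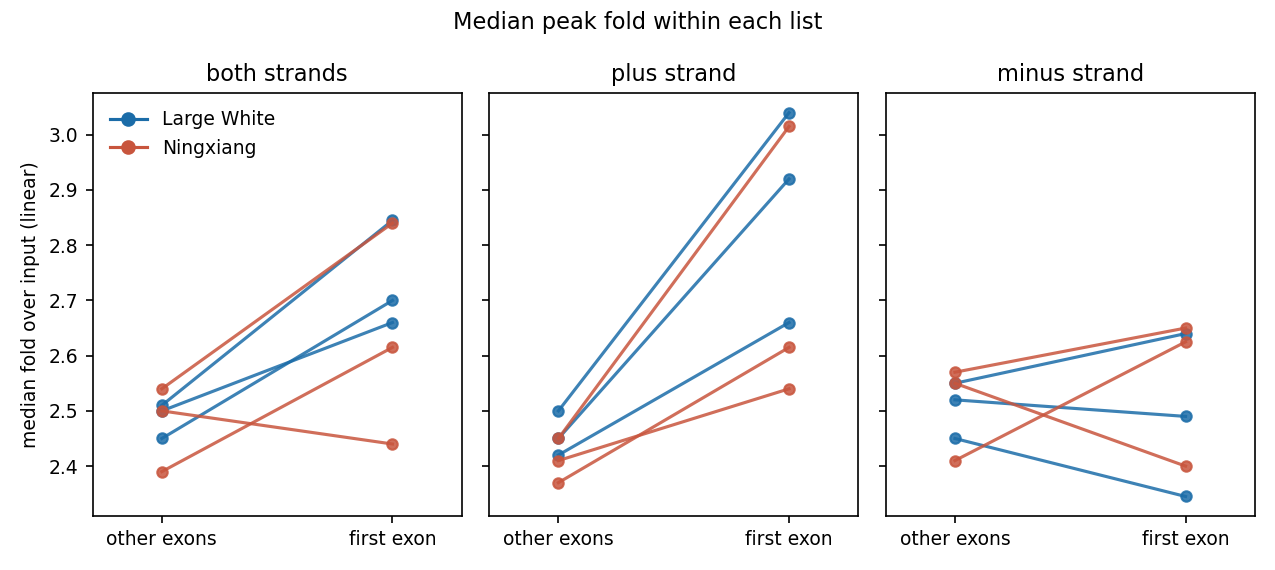
Median fold over input (vertical axis, linear, not starting at 0) of first-exon peaks and of the other exon-class peaks, joined by a line for each of the 6 lists. The lines rise in all 6 lists on the plus strand, and 3 rise and 3 fall on the minus strand.

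About as many genes had only first-exon peaks in a list as had further peaks elsewhere. From 45.4% to 59.4% of genes with a first-exon peak had another peak in the same list. Where they did, the first-exon peak had the lower p in 31.2% ± 6.04 (SD, n = 6 lists) of genes and the higher fold in 48.1% ± 5.76. By p the share lay below 50% in each of the 6 lists, at 22.2% to 40.7%, while by fold it ran from 38.6% to 55.1%. A gene can have several other peaks to set against 1 first-exon peak, so neither share is a like-for-like comparison.

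Recurrence varied widely between genes. Of the 247 genes, 26 had a first-exon peak in all 6 lists, 17 in 5, 23 in 4, 26 in 3, 48 in 2 and 107 in 1. The overlap of gene sets between 2 lists, as the Jaccard index, was 0.386 to 0.412 among Large White lists and 0.350 to 0.391 among Ningxiang lists. It was 0.305 to 0.401 between lists of different breeds, a range that overlaps both.

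The 3 genes with the lowest median log10 p of the 26 were MYBPH, RBM38 and ABRA, with folds of 1.68 to 2.68. MYBPH, a myosin-binding protein of the thick filament, had the lowest median log10 p, -92.2. That median falls between the breeds: the values were -60.4, -47.8 and -54.2 in Large White replicates 1, 2 and 3 and -189, -170 and -124 in Ningxiang ones. This order was not tested, and with depth unknown it cannot be read as a difference in methylation. The MYBPH fold was 1.90, 1.87 and 2.02 in Large White replicates 1, 2 and 3 and 1.75, 1.96 and 1.86 in Ningxiang ones. All 6 peaks lay within the same 180 bases at the start of the minus-strand gene, chromosome 9, 113882316 to 113882495 (susScr11), in exon 1 of 9. In 5 of the 6 lists the peak overlapped the transcript start. ABRA, an actin-binding protein of striated muscle, had a median log10 p of -56.9 and folds of 2.03, 2.23 and 2.20 in Large White and 1.68, 2.07 and 2.02 in Ningxiang. In the 3 Large White lists a single ABRA peak ran from 30712297 on chromosome 4 across the only intron, over 678 to 766 exonic bases. In Ningxiang replicates 1 and 3 the same stretch held 2 separate peaks, and in replicate 2 a single peak of 530 bases stayed within the exon.

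RBM38, an RNA-binding protein that regulates mRNA stability in the p53 pathway and in muscle differentiation, had folds of 2.07, 2.15 and 2.03 in Large White and 2.37, 2.68 and 1.94 in Ningxiang. Its first-exon peak began 237 or 267 bp from the start in every list, on chromosome 17 from 57783394 or 57783424, and continued into exon 2. A peak in the 3′ untranslated region accompanied it in all 6 lists, with a higher fold than the first-exon peak in 4 of them. ARPP19, an inhibitor of the phosphatase PP2A in mitosis, had a peak from the transcript start in every list, with folds of 1.71 to 2.52. FGL2, a fibrinogen-related prothrombinase, had peaks spread over its first exon, and the best ones by p of the 6 lists shared no common base. Taking all its first-exon peaks, the stretch from 102869193 to 102869253 on chromosome 9 was covered in every list.

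Several of the 26 genes code for signalling proteins. TGFB1, the growth factor that restrains muscle differentiation and drives matrix production, had folds of 3.23, 5.23 and 4.38 in Large White and 3.02, 4.72 and 4.30 in Ningxiang. The breeds overlapped. Its best peak touched the transcript start in all 6 lists, at chromosome 6, 49348333 to 49348601 on the minus strand, with the same bounds in 4 lists. A weaker peak lay further inside the same exon, from about 49347856, in every list but Large White replicate 2, with folds of 1.85 to 2.82. BMP5, a ligand of the same superfamily, had a peak 683 to 743 bp from the start in every list, with folds of 5.00, 3.40 and 3.45 in Large White and 3.14, 4.31 and 3.02 in Ningxiang. DKK3, a secreted protein related to Wnt inhibitors, had folds of 2.71, 3.14 and 2.70 in Large White and 3.31, 7.46 and 17.1 in Ningxiang. Every Ningxiang value lay above every Large White value. Whether the authors' folds are comparable between lists was not tested, so the order cannot be read as a difference in methylation.

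IRS1, the insulin receptor substrate that passes on insulin and IGF signals, had several peaks along 1 long first exon. Each list held 2 to 5 of them, between 120 and 3049 bp from the start. The best by p had folds of 2.75, 4.09 and 3.99 in Large White and 2.98, 3.37 and 3.51 in Ningxiang. These best peaks shared no common base over the lists. Taking all first-exon peaks of IRS1, the stretch from 128305132 to 128305281 on chromosome 15 was covered in every list. TNIP1, an inhibitor of NF-kappaB signalling, had folds of 3.78, 3.53 and 3.16 in Large White and 4.21, 2.40 and 3.05 in Ningxiang, starting 29 bp after the transcript start in 5 lists and at it in Ningxiang replicate 3, and running into exon 2 or further. PDE4A, which breaks down cyclic AMP, ranged from 3.20 to 13.8, the highest value being in Large White replicate 2. XIAP, an inhibitor of caspases, ranged from 2.07 to 5.04.

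Others act mainly in the nucleus or on RNA. ZHX3, a zinc-finger homeobox repressor of 2 exons on the minus strand of chromosome 17, had 3 to 5 first-exon peaks in each list. They covered the stretch from 43856125 to 43858921, and the best folds by p were 5.15, 3.88 and 2.83 in Large White and 4.70, 4.89 and 5.71 in Ningxiang. PROX1, a homeobox factor of slow muscle and lymphatic vessels, had the highest lowest fold of the 26 genes, 4.16. Its best peaks had folds of 4.16, 5.27 and 4.45 in Large White and 12.1, 6.08 and 11.1 in Ningxiang, around 129571287 on chromosome 9. As for DKK3, every Ningxiang value lay above every Large White value, and the limit given there holds here too. CTCF, the insulator-binding protein, had folds of 1.81 to 3.92. LEMD3, an inner nuclear membrane protein that antagonises SMAD signals, had folds of 3.85 to 9.34. MSI2, an RNA-binding protein of progenitor cells, had 3.29 to 4.82, with peaks that all began at 33537305 on chromosome 12 and crossed at least 2 junctions.

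The remaining named genes serve transport and the cell surface. SLC39A7, a zinc transporter of the endoplasmic reticulum, had a median log10 p of -25.6 and folds of 3.40, 3.02 and 3.45 in Large White and 4.43, 2.17 and 2.33 in Ningxiang. KCNN3, a calcium-activated potassium channel, had 6.82, 5.81 and 4.21 in Large White and 5.17, 4.08 and 3.85 in Ningxiang. Its peaks lay 445 to 772 bp from the start, on chromosome 4 around 94930551 to 94930878. HYAL2, a hyaluronidase of the cell surface, had folds of 1.69 to 2.45, and CLTC, the clathrin heavy chain, 2.08 to 4.38 with a peak at the transcript start in all 6 lists. MFSD6, a membrane protein, had best folds by p of 4.09 to 7.83 from peaks weak by p, with a median log10 p of -5.37.

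**Figure D5:**
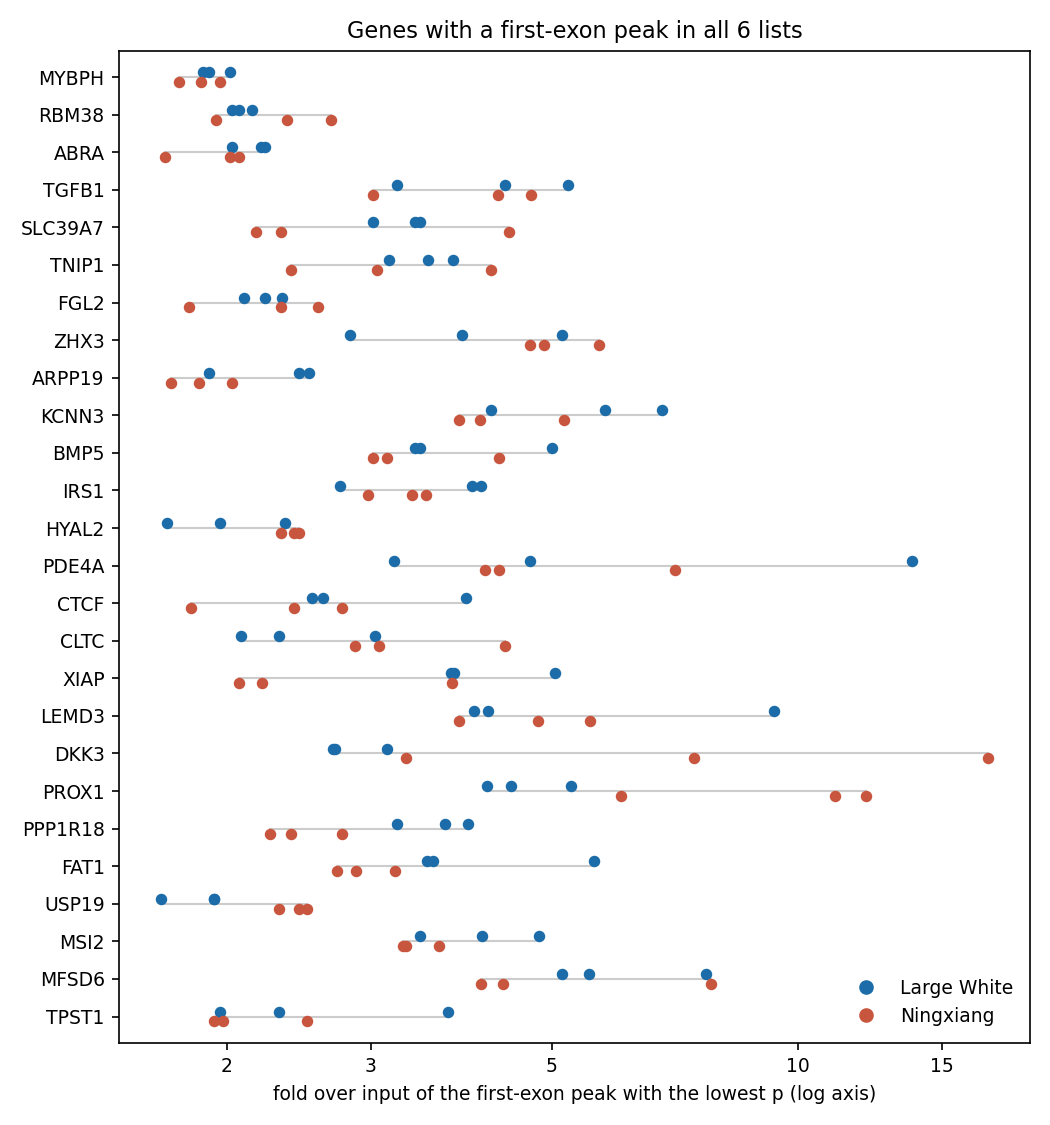
Fold over input (horizontal log axis) of the first-exon peak with the lowest p, for the 26 genes with a first-exon peak in all 6 lists, ordered from the lowest median p at the top; 1 point per list, coloured by breed. Folds near 2 stand at the top (MYBPH, RBM38, ABRA), and the widest ranges belong to DKK3, PDE4A and PROX1.

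Single lists held more extreme members, named here after their values were seen. The highest fold of all, 31.5, belonged to IGFBP7, a secreted binding protein of the IGF family, in Ningxiang replicate 3. It lay on chromosome 8 at 56357616 to 56357822, at the start of a 5-exon gene. IGFBP7 peaks overlapping it had folds of 2.98 and 2.70 in Large White replicates 2 and 3. They had 6.30 and 4.37 in Ningxiang replicates 1 and 2, and Large White replicate 1 had none there. The Ningxiang folds were thus all above the Large White ones, under the limit given for DKK3. The lowest log10 p, -844, belonged to PGAM2, the muscle phosphoglycerate mutase, with a fold of 1.62 in Ningxiang replicate 3. DES, the muscle intermediate filament, had -260 and a fold of 1.91 in the same list. Neither the PGAM2 nor the DES peak overlapped a peak of another list. Ningxiang replicate 3 also held 26 members with a fold of 5 or more, where the other lists held 6 to 17.

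Gene lists chosen for muscle and growth contained first-exon genes to different degrees, given as counts without a test. These gene lists are incomplete. BMP5, PROX1, ZHX3, MYBPH and ABRA, described above, are in none of them. The counts therefore describe the chosen genes and are not shares of whole gene classes. Of the 1825 genes with an exon-class peak, 247 (13.5%) had a first-exon one. Among myogenic regulators 5 of 9 had one: MYF6 in 4 lists, MYOD1 and SIX4 in 2, MYOG and MSTN in 1. These counts follow the listed exon. MSTN peaks listed under a later exon also reached the first in every list but Ningxiang replicate 1, which held the member. MYOG peaks did so in Large White replicates 1 and 3 and in all 3 Ningxiang lists. MYF6, a muscle determination factor, had the same 178 bases listed in Large White replicates 1, 2 and 3 and Ningxiang replicate 3, with folds of 2.42, 2.10, 2.29 and 2.24. MYOD1, the master factor of the muscle lineage, had first-exon peaks in Ningxiang replicates 1 and 3 alone, with best folds of 1.89 and 6.12. TGF-beta, BMP, Wnt and Notch genes had 8 of 17 and homeobox factors 3 of 5, SIX4 being in this list too. HES1, a Notch target, had peaks 28 bp from the start in 2 lists of each breed, and TGFB3 had first-exon peaks in 2 of each. In Large White replicate 2 a HES1 peak over the same stretch carried the 5′ untranslated class. MEOX2, a homeobox factor of somites, had peaks 0 to 29 bp from its start in 2 lists of each breed. In Large White replicate 2 and Ningxiang replicate 1 a MEOX2 peak listed under the last exon also reached the first.

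The IGF axis had 4 of 11 genes: IRS1, IGFBP7 in 5 lists, IGFBP3 in 3 and IGFBP2 in 2. Immediate early factors had 3 of 15, among them MYC in 5 lists. MYC folds were 2.19 and 1.97 in Large White replicates 2 and 3 and 3.73, 5.92 and 10.1 in Ningxiang. They too lay higher in every Ningxiang list, under the limit given for DKK3. Lipid genes had 2 of 15. SREBF1, the activator of fatty acid synthesis genes, was in 5 lists, with folds of 2.49, 3.16 and 3.46 in Large White and 6.82 and 2.67 in Ningxiang replicates 1 and 3. Matrix genes had 2 of 12, including LOX, which cross-links collagen, whose peak had the same bounds in 4 of 5 lists. In Large White replicate 3, which held no LOX member, a LOX peak listed under exon 3 also reached the first. Immune genes also had 2 of 12, including NFKBIA, the inhibitor of NF-kappaB, with peaks from 28 bp after the start in 5 lists. Receptors coupled to G proteins had 2 of 8 and nuclear receptors and FOXO factors 1 of 9. Sarcomere and cytoskeleton genes had 1 of 14, DES, and the m6A machinery 0 of 3. MYBPH and ABRA were not among the chosen sarcomere and cytoskeleton genes.

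Few genes had first-exon peaks in every list of one breed and none of the other. In Large White these were IGFBP3 and RBP7, 2 of 247 (0.81%), where 1.32% of the 1825 genes were called by the same rule applied to any exon-class peak. In Ningxiang they were EIF4G1 and VARS1, also 2 of 247 (0.81%), where that rule called 0.658%. For 1 gene, 3 of 3 against 0 of 3 cannot give a p below 0.1. The counts changed with the lists used: without 1 replicate they ran from 3 to 8 in Large White and from 2 to 9 in Ningxiang, and among the 50% of peaks with the lowest p they were 1 and 0. IGFBP3, which binds IGFs, had folds of 3.39, 3.14 and 1.85 from peaks that joined its first 2 exons, on chromosome 18 from 50003398, and no peak of any class in Ningxiang. RBP7, a retinol-binding protein, had folds of 4.49, 4.06 and 3.89 and none in Ningxiang either. Most bases of these IGFBP3 and RBP7 peaks lay in later exons. Merged over the 3 Large White lists, the first-exon part spanned 33 bases in IGFBP3, where each peak covered 120 to 150 exonic bases. In RBP7 it spanned 40 bases, where each peak covered 147 to 264.

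EIF4G1, the scaffold of the cap-binding translation initiation complex, differed in kind. Its first-exon peak, on chromosome 13 from 122204787, had folds of 1.77, 2.32 and 1.90 in Ningxiang replicates 1, 2 and 3. Merged over these lists the first-exon part spanned 60 bases, where each peak covered 150 to 240 exonic bases. In both breeds EIF4G1 also had a stronger peak in exon 8 of 32 in all 6 lists, with a log10 p of -28.8 or lower. VARS1, the valyl-tRNA synthetase, had a first-exon peak on chromosome 7, between 23898906 and 23899235, with folds of 3.11, 3.00 and 2.28. Large White replicate 3 had a VARS1 peak in exon 5 of 31, and replicates 1 and 2 had none.

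At the level of merged exonic regions, 265 regions contained a first-exon part of a member. Large White alone covered 2 of them (0.755%), those of IGFBP3 and RBP7, and the rule called 1.78% of all 9336 exonic regions. Ningxiang alone covered 6 (2.26%), where it called 0.686% of all regions, and these lay in EIF4G1, VARS1, IRS1, THBD, HOXA5 and RFC3. With an overlap of at least 50% of the region required in every list, 0 and 3 were called. Keeping only the 50% of peaks with the lowest p in each list, 1 and 0 were. Without 1 replicate the counts ran from 4 to 11 in Large White and from 6 to 12 in Ningxiang. The IRS1 region, chromosome 15, 128304055 to 128304504, lies 2780 bp or more from the start. It had folds of 2.75, 3.37 and 3.51 in these replicates, with a further peak of fold 5.04 in replicate 3. Other first-exon peaks of IRS1, from about 128304863 to 128307164, were listed in both breeds. THBD, the endothelial thrombin receptor thrombomodulin, had a Ningxiang region at chromosome 17, 30222841 to 30223260, with best folds of 3.75, 2.0 and 2.47 in replicates 1, 2 and 3. A neighbouring first-exon peak, ending at 30222333, was listed in Large White replicates 1 and 3 and in Ningxiang replicate 2. In HOXA5 and RFC3 part of the peaks over the region carried the 5′ untranslated class, 2 of 3 and 1 of 3.

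Across breeds the median fold of first-exon peaks averaged 2.74 ± 0.0973 over the Large White lists (SD, n = 3) and 2.63 ± 0.201 over the Ningxiang lists (exact permutation p = 0.4, adjusted p = 0.8). Large White lists had 2.66, 2.85 and 2.70, and Ningxiang lists 2.62, 2.44 and 2.84, so the breeds overlapped. The difference was 0.15 on the plus strand and -0.0667 on the minus strand (exact permutation p = 0.4 and 0.6, n = 3, adjusted p = 0.8 for both). Folds of single members ran from 1.59 to 31.5.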

How the data were processed

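Peaks were deposited by the authors as 1 list per replicate, MeRIP over input. Per the file headers each peak has a p-value, a log10 of it (used here as the score that ranks peaks) and a fold, a linear ratio over input; these are the authors' values. FastQC 0.11.9, HOMER, ChIPseeker 1.30.2 and the build susScr11 appear per the submitters' processing notes; which programs aligned reads and called peaks is not given in the sources used here. Starts were printed after adding 1. Exon numbers rise along the chromosome, so minus-strand numbers were turned round. The gene of a member is the gene named with its exon. The listed blocks, counted from the listed exon, never passed the last exon (0 of 10335 peaks). Of all peaks 28 repeat a position within a list, none of them a member (0). Within-list differences, first exon minus other exons, were tested by exact sign-flip permutation over the 6 lists, and breeds by exact permutation of 3 against 3, two-sided, with Benjamini-Hochberg adjustment over 5 and 4 comparisons (Python 3.11.15, pandas 2.3.3, NumPy 2.4.6). The 5 include the junction-crossing share, which the naming by lowest coordinate fixes in part, so its p entered the adjustment of the others. Regions are exonic blocks of all lists merged by strand. Named genes were the 20 with a first-exon peak in all 6 lists and the lowest median log10 p, the 5 with the highest lowest fold, every breed-only gene, and list members with a peak in all 6 lists; others are named from lists or after their values were seen. Members and lists were chosen with earlier results of these data known. Planned motif and GC comparisons were not run, as no genome was used here. Counting was checked on simulated lists.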

Additional observations from a re-analysis of the deposited data

How the results depend on the processing

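The lists hold called peaks only, so depth, and peaks just missed in a list, cannot be judged from them. Differences are Large White minus Ningxiang or first exon minus other exons; the cause of each change was not tested. Among the 50% of peaks with the lowest p in each list, exonic length differed by -6.25 bases and the share found again by -2.86 points, log10 p differed by 4.19, and breed-only genes numbered 1 in Large White and 0 in Ningxiang, as did regions. On the plus strand the log10 p difference was -0.19 and the junction difference 4.55 points, with 1 Ningxiang-only gene and 3 regions. With peaks of 1 block, fold differed by -0.0425 and length by -10.1 bases, with 0 Large White-only genes and 0 regions. With exon numbers not turned, Large White had 47 more peaks and 32.3 more genes, the median fold differed by 0 and log10 p by -0.16, and breed-only genes were 15 and 6 and regions 15 and 12. With an overlap of 50%, breed-only regions were 0 and 3.

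The minus-strand setting and the count by any block were added after seeing the data. On the minus strand the breeds' median fold differed by -0.0667, length by -31.3 bases and the share found again by -0.48 points, with 0 Large White-only and 1 Ningxiang-only gene, and 0 and 3 regions. With any block in the first exon, Large White had 6 more peaks and 8.67 more genes, log10 p differed by -1.49 and junction crossing by 10.4 points, and Large White-only genes and regions were 5 and 5.

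Leaving out 1 replicate, the difference in peaks ran from -15.2 to 3.83, in genes from -11.3 to 4.17, in share from -1.58 to -0.52 points and in median fold from 0.01 to 0.21. The share found again ran from -0.14 points without Ningxiang replicate 2 to 2.33. Breed-only genes ran from 3 to 8 in Large White and from 2 to 9 in Ningxiang, and regions from 4 to 11 and from 6 to 12. With the replicate block, differences within numbers gave -6 peaks (exact sign-flip permutation p = 1.0, n = 3 pairs), and no call changed in the 4 breed comparisons. Same-numbered lists did not deviate together in which genes had an exon-class peak (r = -0.0011, 0.008 and -0.0366). That check sees only the presence of peaks, so it cannot tell whether same-numbered replicates were handled together. With 3 pairs p cannot go below 0.25. Motif and GC alternatives were not run.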
